A study of Mus musculus with 12 samples.

Results

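Chemokine and tissue homing receptors are the surface proteins by which cytotoxic T lymphocytes (CTL) read where to travel. The 9 receptor genes examined here were taken from a list of such genes, Cxcr3, Cxcr4, Cxcr6, Ccr2, Ccr4, Ccr8, Gpr15, S1pr4 and Cx3cr1, and they are 9 of 18193 mouse genes with a probe set of their own. They were read by 14 of the 45037 probe sets tested, and each gene was represented by its brightest probe set over the 12 arrays. No probe set of these genes was annotated to another gene as well.

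All 9 genes encode receptors that cross the membrane repeatedly and pass their signal to heterotrimeric G proteins. Chemokine receptors bind small secreted proteins, S1pr4 binds the lipid sphingosine 1-phosphate, and Gpr15 takes part in the homing of T cells to the large intestine. Naive T cells carry receptors for lymph nodes, and effector CTL replace many of these with receptors for inflamed tissue. PDK1 is the kinase that activates Akt and several related kinases, and active Akt keeps the Foxo transcription factors out of the nucleus.

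RNA was measured in mouse CTL in 2 experiments, with 3 arrays in each of 4 groups. PDK1 null CTL came from 3 C57BL/6 mice with both Pdpk1 alleles floxed (PDK1fl/fl) and a tamoxifen-dependent Cre in the ROSA26 locus (TamoxCre), and Cre control CTL came from 3 mice with the same Cre and normal Pdpk1. Both of these groups received 0.6 μM 4-hydroxytamoxifen (4OHT) over the final 72 h, so they share Cre activity and the drug. AktI CTL were one part of the culture of each of 3 wild type C57BL/6 mice, given 1 μM of the allosteric Akt inhibitor AktI-1/2 over the final 48 h, and wild type CTL were the untreated other part, with no Cre and no 4OHT in either. All T cells were spleen cells activated for 48 h with 0.5 μg/ml CD3 antibody and 20 ng/ml IL-2 and then cultured for 5 days, with IL-2 present throughout. The ages of the mice are not given in the sources used here, and the Cre is not restricted to T cells in the mouse, although the deletion was made in culture.

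The promoters of the 4 receptors called higher in PDK1 null CTL are shown because the kinases under study act on Foxo factors, and Foxo factors in turn regulate Klf2. Each line holds the 250 bases before the RefSeq start of the gene in the mouse build GRCm38.p6, read along the minus strand of the genome on which all 4 genes lie, 5′ to 3′. Capitals mark matches, on either strand, to TGTTTA, a short core of the Foxo site, or to CACCC, a core of the site of Klf factors, whose reverse complement reads GGGTG. The windows are chrX:101734148-101734397 for Cxcr3, chr1:128592300-128592549 for Cxcr4, chr16:58718873-58719122 for Gpr15 and chr10:81500138-81500387 for S1pr4.
Cxcr3: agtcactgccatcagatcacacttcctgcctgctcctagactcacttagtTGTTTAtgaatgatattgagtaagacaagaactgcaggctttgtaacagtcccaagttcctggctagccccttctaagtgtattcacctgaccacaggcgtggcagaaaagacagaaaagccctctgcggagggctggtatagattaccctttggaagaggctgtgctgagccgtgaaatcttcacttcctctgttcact
Cxcr4: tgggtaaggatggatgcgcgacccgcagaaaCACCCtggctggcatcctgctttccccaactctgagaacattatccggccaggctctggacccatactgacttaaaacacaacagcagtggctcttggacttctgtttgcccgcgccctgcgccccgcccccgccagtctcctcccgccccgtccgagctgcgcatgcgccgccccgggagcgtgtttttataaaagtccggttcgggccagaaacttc
Gpr15: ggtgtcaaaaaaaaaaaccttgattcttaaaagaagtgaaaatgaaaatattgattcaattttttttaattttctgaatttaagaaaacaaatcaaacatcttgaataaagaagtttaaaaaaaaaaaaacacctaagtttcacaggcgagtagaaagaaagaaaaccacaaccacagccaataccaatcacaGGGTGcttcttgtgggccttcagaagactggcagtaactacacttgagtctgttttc
S1pr4: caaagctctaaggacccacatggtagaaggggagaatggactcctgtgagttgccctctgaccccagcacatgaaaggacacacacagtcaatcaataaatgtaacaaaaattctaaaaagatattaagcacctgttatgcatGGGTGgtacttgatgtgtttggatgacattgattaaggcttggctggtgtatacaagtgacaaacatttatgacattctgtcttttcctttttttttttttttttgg

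The longer Foxo core GTAAACA was in 0 of the 9 windows, and 3.17% of 32851 mouse windows of the same length held it. TGTTTA was in 1 of the 9, that of Cxcr3, where its first base lay 200 bases before the start, and 12% of all windows held it. CACCC was in 6 of the 9, against 52% of all windows, and the windows with it included those of Cxcr4, Gpr15 and S1pr4 as well as those of Ccr4, Ccr8 and Cx3cr1, which were not called. TGTTTA and CACCC do not overlap each other in these windows, and a match is a run of letters and not a measured binding site.

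The signals are log2 values, in which 1 unit is a doubling, and they were read within an experiment only, since the array medians were 4.61 to 4.63 in the PDK1 experiment and 5.10 to 5.14 in the Akt experiment. A background level was set from probe sets of smell receptors, at 4.45 in the PDK1 experiment and 4.99 in the Akt experiment. Arrays of a group correlated at 0.996 to 0.998 over all probe sets. All 7 markers of CTL and T cells (Cd3d, Cd3e, Cd3g, Cd8a, Cd8b1, Gzmb and Prf1) were above background in every group, and Prf1, which encodes perforin, fell with AktI (log2 change -2.20, limma adjusted p = 0.000164). None of the markers of CD4 and regulatory T cells, B cells, dendritic cells or NK cells was called in either comparison by limma. Of these, 1 had an unadjusted p under 0.05 with PDK1 deletion and 2 with AktI. Eomes passed on p with AktI (log2 change -0.44, limma adjusted p = 0.00883) but changed only 1.35-fold. Cd4, Cd79b and Pax5 were above background on all 12 arrays, so the cultures were not shown to be free of other cells. Mcpt8, a basophil protease, was at 7.38 ± 0.58 in PDK1 null CTL and 7.24 ± 0.49 in Cre control CTL (SD, not called). The representative Pdpk1 probe set read 9.05, 8.95 and 9.09 in PDK1 null CTL, against 8.96, 9.03 and 8.96 in Cre control CTL, but it is not known to lie in the deleted part and so checks nothing. A change is called here when its limma p-value, adjusted over all 45037 probe sets, is under 0.05 and its size is at least 1.5-fold.

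In PDK1 null CTL, 4 of the 9 receptors were called higher than in Cre control CTL, and 0 were called lower. These were Gpr15, Cxcr4, Cxcr3 and S1pr4. No filter on low signals was applied, and all 9 had a group mean above background in the PDK1 experiment and 7 of them in the Akt experiment, the exceptions being Ccr8 and Cx3cr1. Of all 18193 genes, 1.01% were called higher in that comparison and 0.357% lower. In AktI CTL, 3 of the 9 (Cxcr3, Cxcr4 and S1pr4) were called higher than in wild type CTL and 0 were called lower, against 1.51% of all genes called higher and 1.03% called lower. These same 3 receptors were called higher in both comparisons, as were 0.616% of all genes. Gpr15 joined them when the mouse entered the AktI fit as a block, with which 1.57% of all genes were called higher. The groups did not overlap for 5 receptors that were higher in PDK1 null CTL and 5 that were higher in AktI CTL, against 10.9% and 12.7% of all genes, and for 1 that was lower in PDK1 null CTL and 2 that were lower in AktI CTL, against 13.7% and 14.8%. The 2 lower in AktI CTL include Ccr8, which was below background on every array of the Akt experiment. The median log2 change over the 9 receptors was 0.35 with PDK1 deletion and 0.39 with AktI, against -0.01 and -0.02 over all genes. The 9 were chosen with earlier results of these data known, so these counts and medians describe the set and do not test it. Messenger RNA was measured in whole cultures, so more cells with a transcript and more transcript per cell cannot be told apart.

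**Figure D1:**
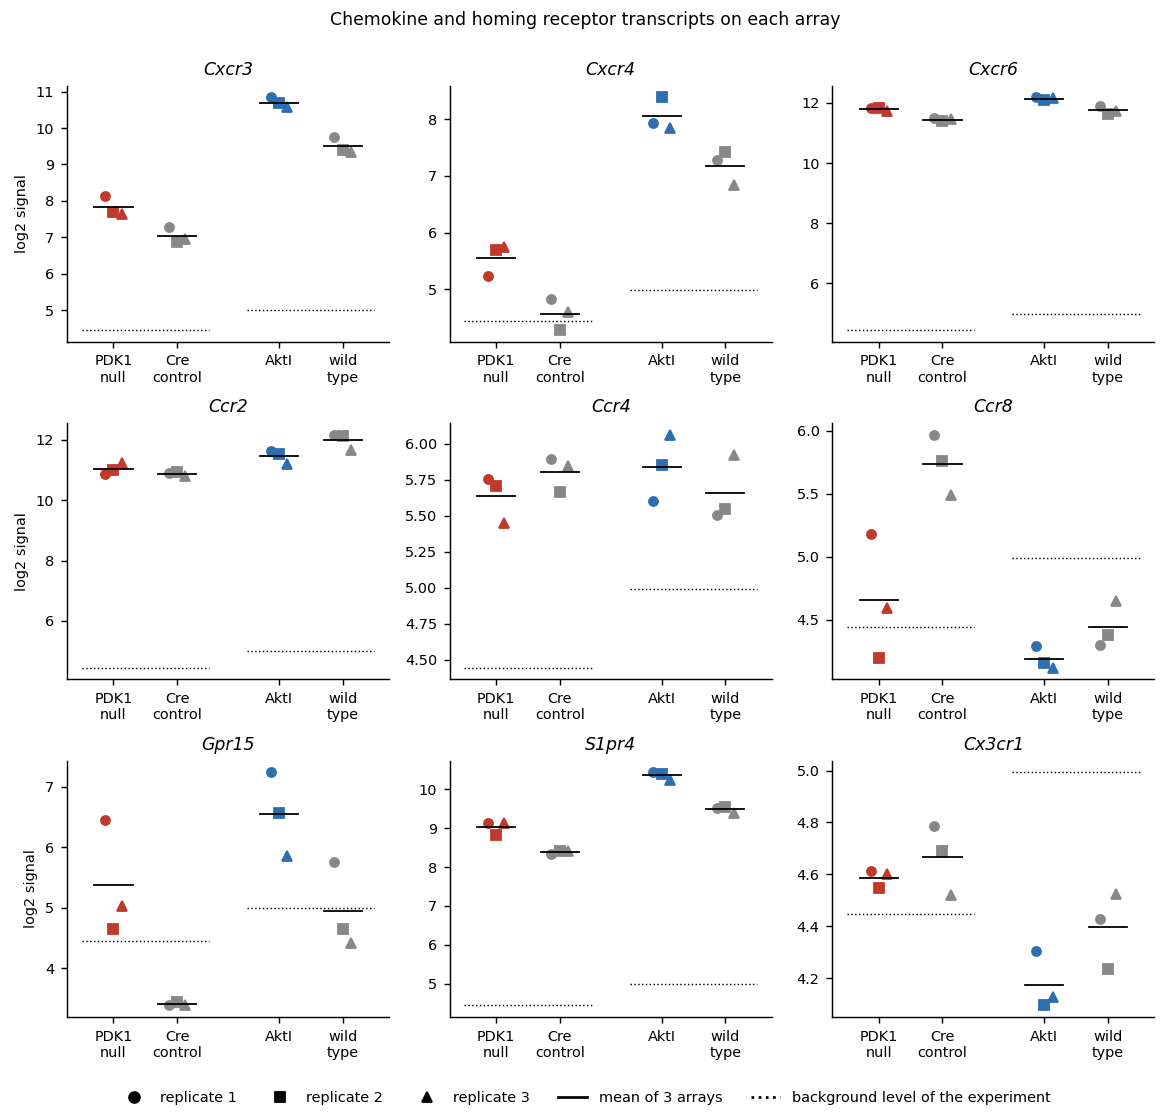
Log2 signal (vertical axis, a range of its own in each panel that does not start at 0) of each receptor on each array, with PDK1 null and Cre control CTL on the left and AktI and wild type CTL on the right of each panel. Symbols mark the replicate number, bars the mean of 3 arrays and dotted lines the background level of the experiment. Cxcr3, Cxcr4, Cxcr6, Gpr15 and S1pr4 are higher on every PDK1 null and every AktI array than on any array of their controls.

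Cxcr3, the receptor for the interferon-induced chemokines Cxcl9, Cxcl10 and Cxcl11, read 8.12, 7.69 and 7.64 in PDK1 null CTL, against 7.29, 6.86 and 6.95 in Cre control CTL. Every PDK1 null array was above every Cre control array. The log2 change was 0.79 ± 0.15 (standard error), or 1.72-fold, with an adjusted p of 0.0443. In the Akt experiment Cxcr3 read 10.84, 10.69 and 10.57 in AktI CTL, against 9.75, 9.40 and 9.34 in wild type CTL. These groups were also apart, and the rise was present in 3 of 3 mice, as for 19.8% of all genes, at 1.09, 1.28 and 1.23 log2 units. The AktI change was 1.20 ± 0.12, or 2.30-fold, with an adjusted p of 0.000949. The AktI call was kept whichever array was left out (adjusted p 0.00146 to 0.00632), whereas the PDK1 call was lost whichever array was left out (0.0526 to 0.165).

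S1pr4, a sphingosine 1-phosphate receptor of blood cells, read 9.13, 8.84 and 9.13 in PDK1 null CTL, against 8.33, 8.42 and 8.41 in Cre control CTL. The Cre control arrays lay close together and all PDK1 null arrays were above them. The log2 change was 0.65 ± 0.09 (standard error), a 1.56-fold rise with an adjusted p of 0.0171. With AktI it read 10.43, 10.39 and 10.25, against 9.53, 9.55 and 9.40 in wild type CTL, again with no overlap. The rise within a mouse was 0.90, 0.84 and 0.85, and the change of 0.86 ± 0.08, or 1.82-fold, had an adjusted p of 0.000617. The AktI call was kept whichever array was left out (0.00167 to 0.00464). The PDK1 call was kept only without PDK1 null replicate 2 (0.00634) and was lost without any one of the other 5 arrays (0.0604 to 0.0700).

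Cxcr4, the receptor for Cxcl12 that holds cells in the bone marrow, read 5.24, 5.69 and 5.75 in PDK1 null CTL, against 4.83, 4.28 and 4.61 in Cre control CTL. All PDK1 null arrays were above background and above all Cre control arrays, of which 2 of 3 were above background. The log2 change was 0.99 ± 0.17 (standard error), or 1.98-fold, with an adjusted p of 0.0291. With AktI it read 7.94, 8.39 and 7.85, against 7.28, 7.42 and 6.84 in wild type CTL. The groups did not overlap, and the rise within a mouse was 0.66, 0.96 and 1.01. The AktI change was 0.88 ± 0.18, or 1.84-fold, with an adjusted p of 0.0254. The PDK1 call was lost without PDK1 null replicate 2 (0.0560) or 3 (0.102) and without Cre control replicate 2 (0.0891) or 3 (0.109). The AktI call was lost without AktI replicate 1 (0.0602) or 2 (0.0702) and without wild type replicate 1 (0.0690) or 3 (0.0590).

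Gpr15, the receptor tied to the large intestine, read 6.44, 4.65 and 5.03 in PDK1 null CTL, against 3.39, 3.44 and 3.39 in Cre control CTL. All PDK1 null arrays were above background and all Cre control arrays were below it. The rise is therefore given as a bound, at least 1.91-fold against the background level, which was not itself tested. The limma adjusted p of 0.0444 belongs to the change in the signals as read, 1.97 ± 0.38 log2 units (standard error). That change rests on Cre control signals below background. PDK1 null replicate 1 was more than 1 log2 unit above the other PDK1 null arrays. The call was kept without PDK1 null replicate 1 (adjusted p = 0.00304) or 2 (0.0190). It was lost without PDK1 null replicate 3 (0.0969), when any Cre control array was left out (0.128 to 0.156), and with the trend and robust options of limma (0.0886).

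With AktI, Gpr15 read 7.23, 6.57 and 5.86, against 5.75, 4.65 and 4.41 in wild type CTL. The groups did not overlap, all AktI arrays were above background, and 1 of 3 wild type arrays was. The wild type mean, 4.94, was below the background level, so the differences that follow rest in part on signals below background. The order of the mice was the same with and without the inhibitor, and the difference within a mouse was 1.49, 1.92 and 1.45. The change of 1.62 ± 0.40 (standard error), or 3.07-fold, missed the threshold (adjusted p = 0.0555) and passed it with the mouse as a block (adjusted p = 0.0012). It also passed without AktI replicate 3 (0.0334) or wild type replicate 1 (0.0269), runs that leave 1 array of a mouse without its pair. Other calls came with the dim probe sets left out (0.0360), probe sets averaged per gene (0.0449) or arrays shifted to the same median (0.0447). They also came with 1 model over all 12 arrays (0.0475) or the SAM test of the study's methods. In 8 further alternatives it was not called. With 1 array left out the change was 1.28 to 2.02 and the limma adjusted p 0.0269 to 0.161.

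**Figure D2:**
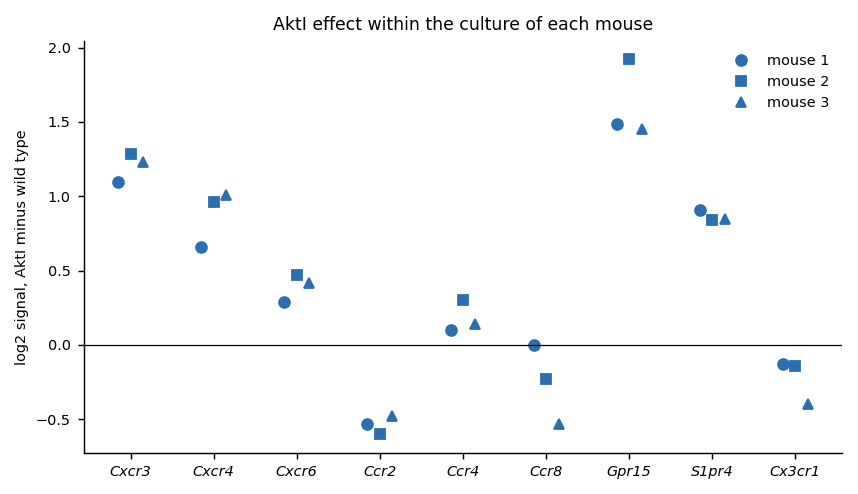
Log2 signal in AktI CTL minus that in wild type CTL of the same mouse (vertical axis) for each receptor (horizontal axis), 1 symbol per mouse. Gpr15 lies at 1.45 to 1.92, Cxcr3 at 1.09 to 1.28 and S1pr4 at 0.84 to 0.90. Ccr2, Ccr8 and Cx3cr1 lie below 0 in 3 of 3 mice, as do 24.3% of all genes. Ccr8 and Cx3cr1 were below background on every array of both groups, and Gpr15 was above it on 1 of 3 wild type arrays.

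Cxcr6, the receptor for Cxcl16 on T cells that lodge in tissues, moved less than these 4. Its brighter probe set read 11.82, 11.82 and 11.74 in PDK1 null CTL, against 11.50, 11.38 and 11.46 in Cre control CTL. The groups were apart, and the log2 change of 0.35 ± 0.07 (standard error) passed on p (adjusted p = 0.0458) but at 1.27-fold was under the minimum, and its adjusted p was 0.0789 to 0.168 with 1 array left out. With AktI the probe set read 12.18, 12.10 and 12.15, against 11.90, 11.62 and 11.74 in wild type CTL, a change of 0.39 ± 0.08 or 1.31-fold (adjusted p = 0.0304). The other Cxcr6 probe set gave 0.32 with PDK1 deletion (adjusted p = 0.0561) and 0.41 with AktI (adjusted p = 0.00893). With no fold minimum, 1.63% of all genes were higher in PDK1 null CTL and 3.66% in AktI CTL.

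Ccr8, the receptor for Ccl1 found on skin-homing T cells, had the largest negative value with PDK1 deletion. It read 5.18, 4.19 and 4.59 in PDK1 null CTL, against 5.97, 5.76 and 5.50 in Cre control CTL. The groups did not overlap, and 2 of 3 PDK1 null arrays were above background. The log2 change was -1.08 ± 0.23 (standard error), a 2.12-fold difference, with an adjusted p of 0.0591. Leaving out PDK1 null replicate 1 gave -1.35 with an adjusted p of 0.0166. Ccr8 was also called lower with the trend and robust options of limma (0.0366), dim probe sets left out (0.0436) or probe sets averaged per gene (0.0450). The same held with 1 model over all 12 arrays (0.00696) or the SAM test of the study's methods. In 9 alternatives it was not called, among them quantile normalization (0.0600) and arrays shifted to the same median (0.0523). With 1 array left out its limma adjusted p was 0.0166 to 0.183, and 1 such run called it. In the Akt experiment it was below background on all 6 arrays, at 4.30, 4.16 and 4.12 in AktI CTL, against 4.30, 4.38 and 4.65 in wild type CTL.

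Ccr2, the receptor for Ccl2 on monocytes and effector T cells, read 10.87, 10.99 and 11.23 in PDK1 null CTL, against 10.90, 10.94 and 10.82 in Cre control CTL. These groups overlapped (log2 change 0.15 ± 0.10, standard error, adjusted p = 0.537). With AktI it read 11.63, 11.54 and 11.19, against 12.17, 12.14 and 11.67 in wild type CTL. AktI CTL were lower in 3 of 3 mice, at -0.53, -0.60 and -0.48, as were 24.3% of all genes, each read by its brightest probe set. All 4 Ccr2 probe sets were lower in 3 of 3 mice, but only the groups of the brightest did not overlap. The other probe sets changed by -0.54, -0.49 and -0.23 (limma adjusted p = 0.153, 0.197 and 0.385). The change of the brightest, -0.54 ± 0.16, had an adjusted p of 0.0995. With the mouse as a block it had an adjusted p of 0.00984 but at 1.45-fold was under the fold minimum. With that minimum left aside, 2.69% of all genes were lower with that block. Without wild type replicate 3, which leaves AktI replicate 3 without its pair, the change was -0.70 and was called (adjusted p = 0.0313). That was the only call when each of the 6 arrays was left out in turn. Over those runs the change was -0.70 to -0.41 and the limma adjusted p 0.0313 to 0.257.

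Monocytes also carry Ccr2, and the summed level of 7 monocyte and macrophage markers (Csf1r, Lyz2, Cd14, Adgre1, Itgam, Cd68 and Fcgr1) was 8.09 to 8.20 log2 units in AktI CTL and 8.50 to 8.80 in wild type CTL. Of the 7, 1 was called lower, Cd68, at 6.01 ± 0.19 in AktI CTL and 7.31 ± 0.40 in wild type CTL (SD, n = 3 each, adjusted p = 0.00563). Csf1r and Fcgr1, above background on all 6 arrays, gave log2 changes of -0.05 (adjusted p = 0.812) and 0.01 (adjusted p = 0.948). The means of Lyz2, Cd14, Adgre1 and Itgam were at or below background in both groups. Mcpt8, a basophil protease and 1 of 6 granulocyte, mast cell and basophil markers measured, was also called lower, at 4.87 ± 0.47 in AktI CTL and 5.96 ± 0.41 in wild type CTL (adjusted p = 0.0465), and the summed level of those 6 was 6.42 to 6.74 in AktI CTL and 6.89 to 7.31 in wild type CTL. The other 5 (S100a8, S100a9, Cpa3, Fcer1a and Siglecf) were below background on every AktI and wild type array. The part of these cells in the Ccr2 values was not tested.

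Ccr4 and Cx3cr1 were not called in either comparison. Ccr4, the receptor for Ccl17 and Ccl22, read 5.76, 5.71 and 5.45 in PDK1 null CTL, against 5.89, 5.66 and 5.85 in Cre control CTL (log2 change -0.16, 95% confidence interval -0.40 to 0.07, adjusted p = 0.518). It read 5.60, 5.85 and 6.06 in AktI CTL, against 5.50, 5.55 and 5.92 in wild type CTL (0.18, interval -0.14 to 0.50, adjusted p = 0.588). Both pairs of groups overlapped. Cx3cr1, the receptor for the membrane-bound chemokine Cx3cl1, was barely above background in the PDK1 experiment, at 4.61, 4.55 and 4.60 in PDK1 null CTL, against 4.79, 4.69 and 4.52 in Cre control CTL (-0.08, interval -0.27 to 0.11). It was below background on all 6 arrays of the Akt experiment, and its second probe set was below background on all 12 arrays.

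**Figure D3:**
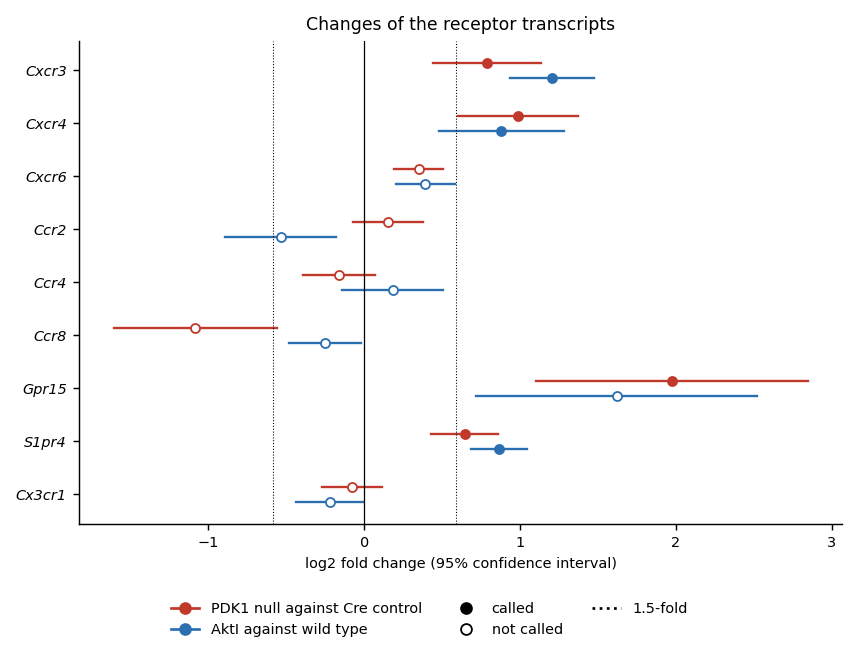
Log2 fold change (horizontal axis) of each receptor with its 95% confidence interval, PDK1 null against Cre control CTL above AktI against wild type CTL. Filled points are called changes and dotted lines mark 1.5-fold; Cxcr3, Cxcr4 and S1pr4 are filled in both comparisons and Gpr15 with PDK1 deletion. The Gpr15 points rest on control means below background.

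Whether the 2 treatments differed in their effect was tested as the PDK1 change minus the AktI change in a model of all 12 arrays. It was called for 0 of the 9 receptors by limma, against 0.522% of all genes, and 2 receptors had an unadjusted p under 0.05. These were Ccr2, with a difference of 0.69 (95% confidence interval 0.25 to 1.12, adjusted p = 0.206), and Ccr8, with -0.83 (-1.43 to -0.24, adjusted p = 0.28), of which Ccr8 was below background in the Akt experiment. Without PDK1 null replicate 1 the Ccr8 difference was -1.09 and was called (adjusted p = 0.0339). That was the only call when each of the 12 arrays was left out in turn. Over those runs the difference was -1.09 to -0.60 and the limma adjusted p 0.0339 to 0.450. For the 4 receptors called with PDK1 deletion the difference was -0.42 for Cxcr3 (-0.87 to 0.04), 0.11 for Cxcr4 (-0.47 to 0.69), -0.22 for S1pr4 (-0.49 to 0.05) and 0.35 for Gpr15 (-0.99 to 1.70), whose control means were below background in both experiments. These intervals are wide beside the changes themselves and do not show that the effects were alike.

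**Figure D4:**
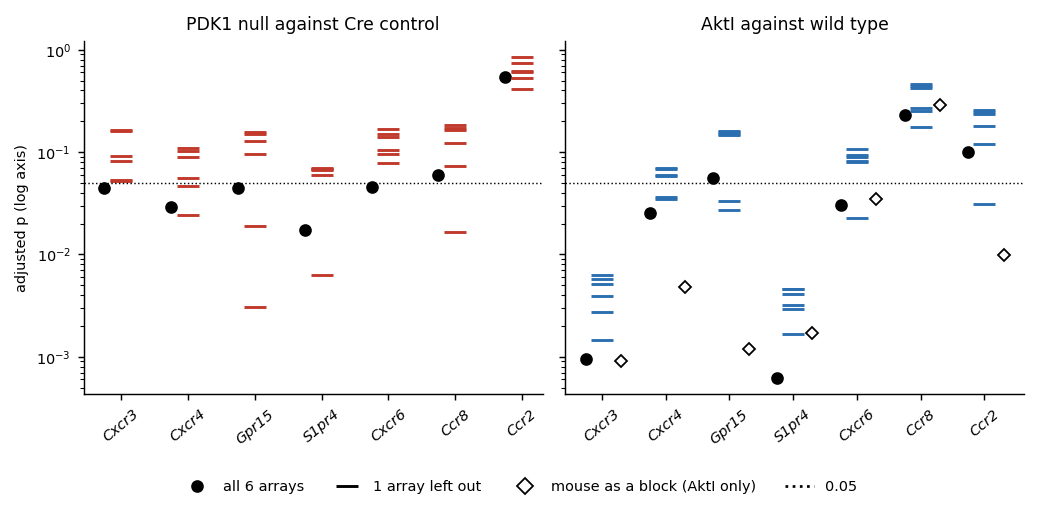
Adjusted p (vertical log axis) of 7 receptors with all 6 arrays of a comparison (circles), with 1 array left out (dashes) and, for AktI, with the mouse as a block (diamonds). The dotted line is 0.05; the AktI dashes of Cxcr3 and S1pr4 stay below it, and those of Cxcr3 with PDK1 deletion lie above it.

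Among the other receptors of the same families, Ccr7 stood beside these changes. Of 17 other chemokine receptors 15 were measured, and 1 was called in each comparison. This was Ccr7, which guides T cells into lymph nodes, at 7.82 ± 0.28 in PDK1 null CTL and 6.23 ± 0.60 in Cre control CTL (SD, n = 3 each, log2 change 1.59, adjusted p = 0.0296). It was at 10.46 ± 0.18 in AktI CTL and 8.84 ± 0.12 in wild type CTL (1.62, adjusted p = 0.000129). The PDK1 call of Ccr7 was lost without PDK1 null replicate 1 (0.0916) or 3 (0.0932) or Cre control replicate 3 (0.0904), and with the trend and robust options (0.0510). The other 14, from the inflammatory receptors Ccr1 and Ccr3 to the scavenging receptors Ackr1 to Ackr4, were not called in either comparison. The median over the 15 was 0.00 with PDK1 deletion and 0.02 with AktI. Of the 15, 9 had a group mean above background in the PDK1 experiment and 7 in the Akt experiment. These medians therefore include transcripts below background, in which a change could not be read.

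Of 8 other homing receptors, 1 was called with AktI and 0 with PDK1 deletion. S1pr1, by which lymphocytes leave lymph nodes, was at 8.23 ± 0.15 in AktI CTL and 6.85 ± 0.24 in wild type CTL (SD, n = 3 each, log2 change 1.38, adjusted p = 0.000709). In the PDK1 experiment it was at 6.94 ± 0.71 in PDK1 null CTL and 6.28 ± 0.52 in Cre control CTL, with overlapping groups (0.66, adjusted p = 0.439), and the difference between the 2 effects was not called (-0.72, adjusted p = 0.615). S1pr3, S1pr2, S1pr5, Gpr183, Gpr18, Ltb4r1 and Ptgdr2 were not called. Of the 8, 7 had a group mean above background in the PDK1 experiment and 6 in the Akt experiment. S1pr3 had an adjusted p of 0.0207 in PDK1 null CTL but at 1.44-fold lower was under the minimum.

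**Figure D5:**
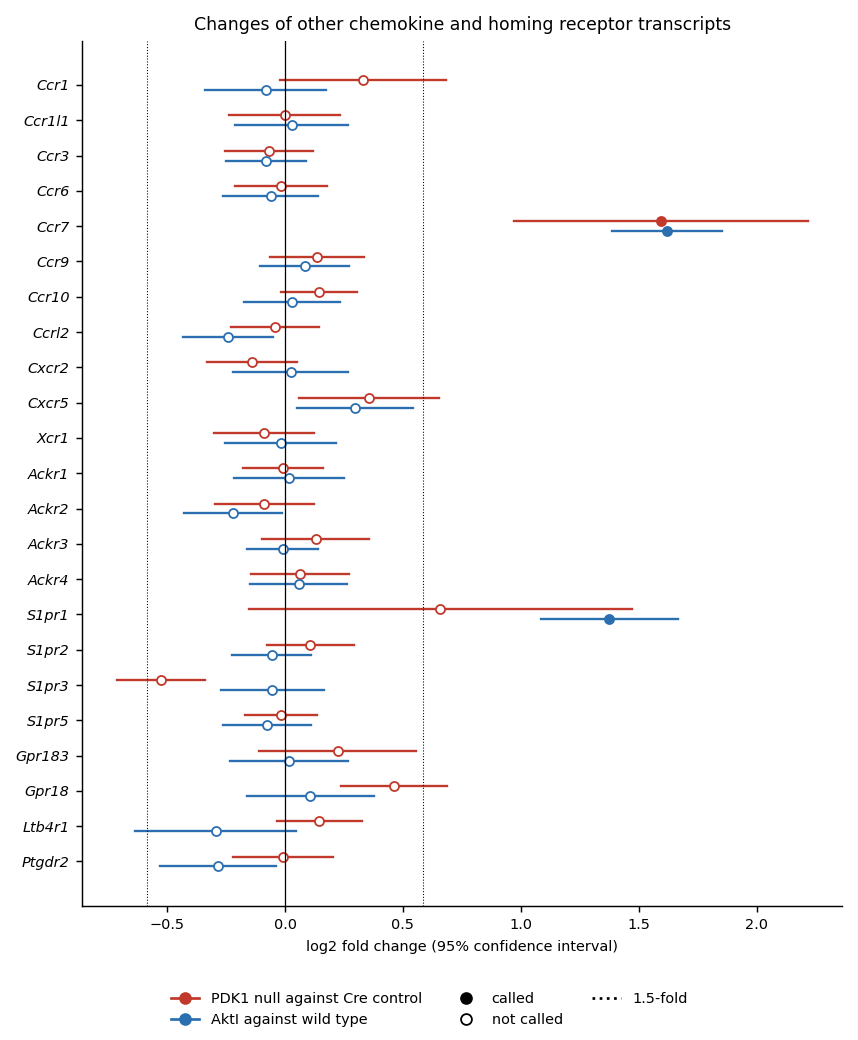
Log2 fold change (horizontal axis) with its 95% confidence interval of 15 other chemokine receptors (Ccr1 to Ackr4) and 8 other homing receptors (S1pr1 to Ptgdr2), PDK1 null against Cre control CTL above AktI against wild type CTL, filled where called. Ccr7 is filled in both comparisons and S1pr1 with AktI. Some of the unfilled points rest on signals below background.

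None of the 14 ligands of the 9 receptors was called in either comparison by limma, with 1 at an unadjusted p under 0.05 with PDK1 deletion and 2 with AktI. They include Cxcl9, Cxcl10 and Cxcl11 for Cxcr3, Cxcl12 for Cxcr4 and Cxcl16 for Cxcr6. Of the 14, 7 had a group mean above background in the PDK1 experiment and 5 in the Akt experiment. Cxcl9 and Cxcl11 were below background on all 12 arrays, so a change in them could not be read. Of 18 proteins that carry the receptors' signal 17 were measured, and 1 was called in each comparison, Pik3r5, the regulatory subunit that couples the kinase PI3Kγ to G protein βγ subunits. Pik3r5 was at 8.70 ± 0.11 in PDK1 null CTL and 7.81 ± 0.12 in Cre control CTL (SD, n = 3 each, log2 change 0.89, adjusted p = 0.00373). It was at 9.32 ± 0.13 in AktI CTL and 8.13 ± 0.17 in wild type CTL (1.19, adjusted p = 0.000495). The G protein subunits, receptor kinases and arrestins measured were not called.

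The 4 receptors that were called were not neighbours in the genome. In GRCm38.p6, Cxcr3 lies on chromosome X, Cxcr4 on 1, Gpr15 on 16 and S1pr4 on 10, and none of the 9 shares chromosome 17 with Pdpk1. The other 5, of which none was called, all lie on chromosome 9. Cx3cr1 and Ccr8 are adjacent there with 0 protein-coding genes between them, and Cxcr6 and Ccr2 have 4 between them.

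Among 11448 genes above background in both experiments, those whose pattern was most like each called receptor over the 12 arrays, after the mean of each experiment was taken out, were found by Pearson's r. The arrays share the 2 treatment contrasts, so r is a description of these 12 arrays. Cxcr3 was followed by Scp2 (0.987), Fam78a (0.984) and St8sia1 (0.978). S1pr4 was followed by Washc4 (0.989), Plekhg2 (0.988) and Slamf6 (0.988). Slamf6, a surface receptor of lymphocytes, had the largest changes of these genes, with log2 changes of 2.63 in PDK1 null CTL (adjusted p = 0.00401) and 3.17 in AktI CTL (adjusted p = 0.000119). Cxcr4 was followed by Brd1 (0.962), Oser1 (0.959) and Ythdc1 (0.953), none of which was called, and Gpr15 by Eps15 (0.974), Sun2 (0.973) and Grk6 (0.971), a receptor kinase that was not called.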

How the data were processed

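CTL RNA was hybridised to Affymetrix mouse expression arrays, 12 in all with 3 per group. The deposited values are log2 signals, which the authors made with the robust multichip average of Affymetrix Expression Console 1.1; they were used unchanged. Of 45101 probe sets, 64 controls were left out and 34945 of the rest name 1 gene. Moderated linear models (lmFit, eBayes; limma 3.58.1, R 4.3.3) were fitted to the 6 arrays of a comparison, with Benjamini-Hochberg adjustment over 45037 probe sets. The difference of effects came from a model of the 4 group means, and the code was tested on simulated data. An exact permutation of 3 against 3 arrays cannot give a p below 0.1, and the number of arrays limits the precision.

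The members and lists were chosen with earlier results of these data known. The genes named are the 9 receptors, list genes called in any comparison, and the 3 genes most like each called receptor, besides markers and S1pr3, named after their values were seen. Background was set at the 95th percentile of 80 mean signals from smell and vomeronasal receptor genes. The labels state that AktI and wild type arrays of a number share a mouse, and their deviations from the group means correlated at 0.03 to 0.17 for the same mouse and at -0.10 to 0.04 for different mice. Alternatives were trend and robust moderation, other normalizations, filters, fold minimums, averaged probe sets, 1 model of 12 arrays, blocks, SAM with the thresholds of the study's methods, and each array left out. Symbols and promoters are from RefSeq.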

Additional observations from a re-analysis of the deposited data

Results flagged for a closer look

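Pik3cg, the catalytic subunit of PI3Kγ and 1 of the 17 signal proteins measured, was singled out because its 2 changes differed from each other by limma's test of the difference (0.631 log2 units, adjusted p = 0.0428). It read 8.65 ± 0.13 in PDK1 null CTL and 8.27 ± 0.09 in Cre control CTL (SD, n = 3 each, log2 change 0.37, adjusted p = 0.0806), and 8.99 ± 0.08 in AktI CTL and 9.24 ± 0.12 in wild type CTL (-0.26, adjusted p = 0.131). Neither change was called on its own. The difference was no longer called with a 2-fold minimum, with probe sets averaged per gene (0.35, adjusted p = 0.265), with the replicate number as a block (adjusted p = 0.0814), or without any one of 10 of the 12 arrays (adjusted p 0.0262 to 0.129 over the 12).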

How the results depend on the processing

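No receptor's PDK1 or AktI change turned its sign under any alternative run. With a 2-fold minimum, receptors called were 1 with PDK1 deletion and 1 with AktI, and all genes called were 76 and 151, with 38 for the difference of effects. With no fold minimum all genes called were 432 with PDK1 deletion and 1199 with AktI, against 248 and 461 as reported. Leaving out 1 array gave 0 to 3 receptors and 98 to 328 genes with PDK1 deletion, 2 to 4 receptors and 411 to 477 genes with AktI, and 0 to 1 receptors and 53 to 124 genes for the difference, against 95 as reported. The 0 came without PDK1 null replicate 3 or Cre control replicate 2 or 3. The mouse as a block changed no AktI call of a receptor other than Gpr15. PDK1 null and Cre control arrays share only a number: their deviations correlated at -0.01 to 0.05 for the same number and -0.07 to 0.04 for others, 3 of 6 arrays correlated best with their own number, and with the number as a block Cxcr4 was no longer called (adjusted p = 0.0679), Ccr8 was called lower (0.0318) and S1pr1 higher (0.0423). With dim probe sets left out, Ccr8 and Cx3cr1 gave no AktI value. Ccr8 and Cx3cr1 with AktI, and Gpr15 in Cre control CTL and on 2 of 3 wild type arrays, were limited by signals below background.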
